A study of Schizosaccharomyces pombe with 4 samples.

Results

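The genes analysed here lie within 75000 bases of the 4 ends of chromosomes 1 and 2 of the fission yeast Schizosaccharomyces pombe. This region was chosen with earlier results of these data known, and membership in it was set by position. A gene belongs if it starts within 75000 bases of the left end. It also belongs if it stops within 75000 bases of the last annotated feature on the right. Non-coding RNA, tRNA and rRNA genes were left out. This gave 91 genes of the 6808 features measured, with 28 at the left end of chromosome 1 (1L), 18 at its right end (1R), 22 at the left end of chromosome 2 (2L) and 23 at its right end (2R). RefSeq's annotation (assembly ASM294v3) lists 82 of them as protein-coding and 9 as pseudogenes, and 34 carry a gene symbol.

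The RNA came from a deletion strain, h- int6::kanMX6 ura4-D18 leu1-32, and from a wild-type (WT) strain, h- ura4-D18 leu1-32. int6 encodes eIF3e, a subunit of translation initiation factor eIF3, and in the deletion strain the drug resistance cassette kanMX6 stands in its place. Both strains carry the uracil marker ura4-D18 and the leucine marker leu1-32, and both grew in the rich medium YES. Total RNA was depleted of rRNA and sequenced on a SOLiD 4 instrument, as 2 libraries of each strain. The labels do not tell whether the replicates were separate cultures, so p-values measure only the spread between these libraries, which may be technical.

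Subtelomeres are the regions next to the telomeres. In fission yeast the parts closest to the telomere are packed into heterochromatin, in which the methyltransferase Clr4 marks histones, HP1-type proteins such as Swi6 bind that mark, and transcription is kept low. The outermost genes, tlh1 and tlh2, encode helicases of the RecQ family and are known to be silent in growing wild-type cells and to be transcribed where this silencing is lost. Many genes further inward belong to near-identical families spread over several chromosome ends, and many are known to be low in rich medium and to be induced on nitrogen starvation.

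tlh1 (SPAC212.11) covers positions 1 to 5662 of chromosome 1 on the minus strand, so that it reaches the last base of the assembled left end. tlh2 (SPBCPT2R1.08c) covers positions 4526885 to 4532899 of chromosome 2 on the plus strand and is the outermost annotated gene of that right end. Over the 5662 bases of tlh1 the 2 genes differ at 1 base, C303T, counted from 1 at the start of the gene with the base of tlh1 given before that of tlh2. The base is at position 3 of its codon and both codons encode leucine, so that the 1887 residues of tlh1 are all matched in tlh2, whose annotation runs on for 353 bases. The 101 bases around it, from the RefSeq genome, are shown because only reads crossing this base can tell the shared part of the copies apart, and the capital marks it.
tlh1, chr1:5310-5410, minus strand: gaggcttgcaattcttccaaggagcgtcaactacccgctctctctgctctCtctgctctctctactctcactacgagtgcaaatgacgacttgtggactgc
tlh2, chr2:4527137-4527237, plus strand: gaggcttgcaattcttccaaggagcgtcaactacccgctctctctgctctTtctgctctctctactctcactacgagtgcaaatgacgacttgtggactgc
Upstream of the annotated starts, 250 bases of each gene also differ at 1 base, which lies 66 bases before the start. The sequence of tlh1 is shown because the copies share it, and the capital marks the base that differs.
tlh1 upstream, chr1:5663-5912, minus strand: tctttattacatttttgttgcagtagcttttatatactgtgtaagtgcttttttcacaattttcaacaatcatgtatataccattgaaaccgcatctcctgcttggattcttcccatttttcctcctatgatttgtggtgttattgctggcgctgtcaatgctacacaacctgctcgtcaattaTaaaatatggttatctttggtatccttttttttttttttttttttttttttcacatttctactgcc
Of all 50-base windows of tlh1, 0.891% occur nowhere else in the genome, against 6.75% for tlh2. Reads of the copies can therefore be assigned to 1 of them only in small part, and the deposited counts split some reads between them.

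The question at these ends was which transcripts differ in level without eIF3e. Both helicase genes had more reads in each deletion library than in either WT library, and they were the only members with a log2 change above 2.35 in the edgeR fit. tlh1 had 834.9 and 331.8 reads in deletion replicates 1 and 2, against 10 and 17 reads in WT replicates 1 and 2. tlh2 had 153.1 and 46.2 reads in the deletion libraries, against 1 and 5 reads in WT. In CPM after TMM scaling, which puts reads on a common library size and composition, tlh1 averaged 25.9 ± 2.93 CPM in the deletion and 1.22 ± 1.11 CPM in WT, and tlh2 averaged 4.12 ± 0.346 CPM in the deletion and 0.316 ± 0.386 CPM in WT (SD, n = 2 each). The deletion libraries lay close together and far above WT, whose own 2 libraries differed from each other severalfold. The log2 change, deletion over WT, was 4.64 (SE 0.62) for tlh1 and 4.10 (SE 0.98) for tlh2. In RNA from whole cultures, a higher level in every cell and transcription in a larger share of the cells cannot be told apart.

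With strain as the only term, neither helicase gene passed the threshold of 0.05 in edgeR's quasi-likelihood test, which gave an adjusted p of 0.111 for tlh1 and 0.258 for tlh2. Over all the settings tried, the adjusted p ran between 2.6e-11 and 0.137 for tlh1 and between 0.00566 and 0.552 for tlh2, with the lowest values from DESeq2 and the highest without WT replicate 1. The log2 change stayed positive when any 1 library was left out. Without WT replicate 1 it was 3.68 for tlh1 and 2.79 for tlh2, and without WT replicate 2 it was 5.88 for tlh1 and 6.41 for tlh2. The size of the change thus rests on which WT library is taken as the base, since WT replicate 2 held more helicase reads at a lower depth.

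**Figure D1:**
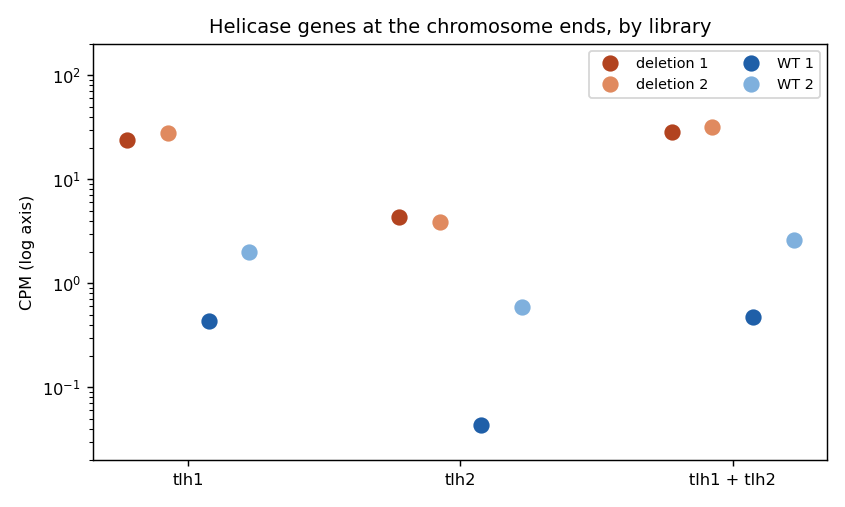
Level of tlh1, tlh2 and their sum in each library, in TMM-normalized CPM on a log axis; each point is 1 library, deletion to the left of WT. For the sum, the deletion libraries sit at 28.2 and 31.8 CPM, above the WT libraries at 0.476 and 2.59 CPM.

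Summing the copies removes the question of which of them a read came from. The sum of tlh1 and tlh2 was 988 and 378 reads in the deletion libraries, against 11 and 22 reads in WT. This is 28.2 and 31.8 CPM in the deletion and 0.476 and 2.59 CPM in WT, a 19.5-fold higher mean in the deletion, with a log2 change of 4.52 (adjusted p 0.111, edgeR's quasi-likelihood test). tlh1 was given 5.45 and 7.18 times the reads of tlh2 in the deletion libraries, against 10 and 3.4 times in WT. These ratios depend on how shared reads were assigned to the copies. In RPKM, the level per transcript length, tlh1 stood at 4.75 and 3.31 in the deletion libraries, against 0.0926 and 0.282 in WT. That deletion level is close to the median of the other nuclear genes of the same kinds, which was 4.79 and 2.7 RPKM in the deletion libraries and 4.89 and 3.11 RPKM in WT.

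In the deletion libraries, the genes beside the helicases were assigned far fewer reads than tlh1 and tlh2. On 1L the pseudogene SPAC212.10, which lies upstream of tlh1 and overlaps the sequence printed above, had 14 and 4 reads in the deletion libraries, against 8 and 0 in WT. The next pseudogene, SPAC212.09c, had 2 and 5 reads in the deletion libraries, against 4 and 0 in WT. On 2R the pseudogene SPBCPT2R1.07c, the neighbour of tlh2, had 12 and 8 reads in the deletion libraries, against 15 and 15 in WT, and its log2 change was −1.25 (adjusted p 0.746, edgeR's quasi-likelihood test). All 3 neighbours stayed at 15 reads or fewer in every library, and the strains overlapped in CPM in each.

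The other 2 ends have no helicase gene in the annotation used. The outermost gene of 1R, SPAC750.08c, annotated as a malic enzyme, had 7 and 0 reads in the deletion libraries, against 2 and 1 in WT. The outermost gene of 2L, SPBC1348.15, had 0 reads in both deletion libraries, against 2 and 0 in WT. Both were too low to test.

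Of the 91 genes, 47 had enough reads to be tested beside the other features, 5915 in all, and 44 did not. edgeR's quasi-likelihood test called 0 members higher and 0 lower at an adjusted p of 0.05, where it called 0.0169% of all features higher (1 feature) and 0% lower. At an unadjusted p of 0.05, 2 members were higher (tlh1 and tlh2), against a background of 4.8% of all features, and 7 members were lower, against 5.31%. DESeq2 called tlh1 and tlh2 higher (background 0.828%) and 4 members lower (background 0.693%), namely SPAC977.18, SPAPJ695.02, yhb1 and cmt2, while limma-voom called 0 in each direction. The deleted gene itself did not pass edgeR's test: int6, with 1 and 10 reads in the deletion libraries against 504 and 194 in WT and a log2 change of −6.23 (SE 0.93), had an adjusted p of 0.111. In simulated counts the same test found 5.02% of genes with a 2-fold change, 62.7% with a 4-fold and 92.6% with an 8-fold change. Every simulated gene was given the same spread between libraries (dispersion 0.111), unlike the real genes, and int6 did not pass at a larger change. These shares therefore do not measure how many real changes the test finds in these libraries.

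Away from the helicases, more members had a negative than a positive log2 change. Of the 47 tested, 14 were positive and 33 negative, and of the 45 without tlh1 and tlh2, 12 were positive and 33 negative. All features tested split into 2962 positive and 2953 negative. The median log2 change of the 47 tested members was −0.39, and of the 45 without tlh1 and tlh2 it was −0.42, beside 0.00 for all features and 0.03 for the 87 tested of the 101 genes in the next 75000 bases inward. This median leans on WT replicate 1: without it the median of the members was −0.11, with 21 positive and 28 negative, and without any 1 of the other libraries it lay between −0.51 and −0.44. Both deletion libraries lay below both WT libraries for 18 tested members, or 38.3%, beside 21.4% of all features. Both lay above for 4 members, or 8.51%, beside 20.1% of all features. These 4 were tlh1, tlh2, SPAC186.06 and sul2. With 2 libraries against 2, the smallest exact permutation p for 1 gene is 0.333, so that these counts describe the libraries and test no single gene. The filter asks for enough reads in 2 libraries, so a low gene can pass through 1 strain alone, which favours that direction. SPAC977.18 (7 and 2 reads in the deletion, 51 and 21 in WT) is such a gene below WT. Above WT, tlh2 (153.1 and 46.2 reads against 1 and 5) is another. The same filter was used for all features.

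**Figure D2:**
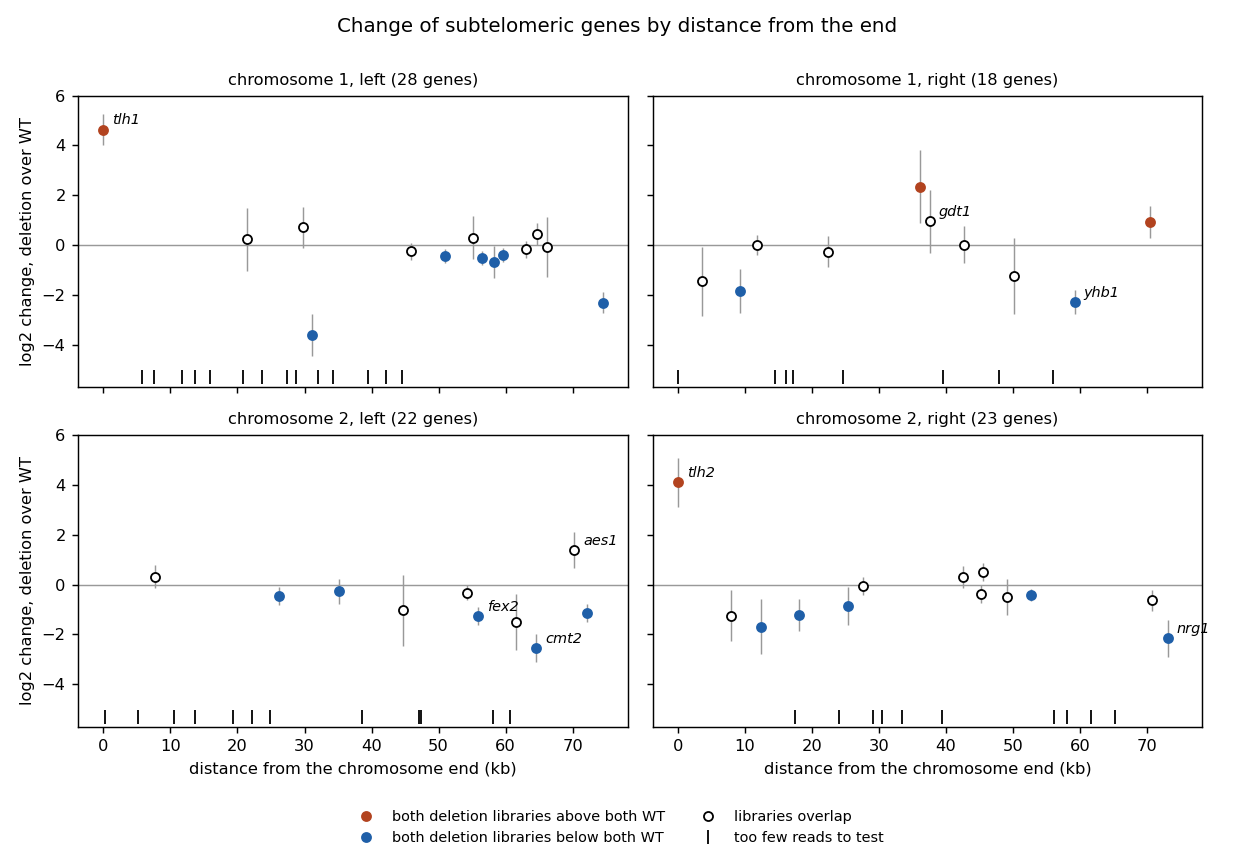
Log2 change, deletion over WT (y axis), against distance from the chromosome end in kb (x axis), for each end; points are tested genes with 1 SE from the edgeR fit, coloured by whether the libraries of the strains overlap, and ticks at the bottom are genes with too few reads to test. tlh1 and tlh2 stand alone at distance 0 with log2 changes of 4.64 and 4.10, and most other coloured points are below 0.

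At the left end of chromosome 1, 14 of 28 genes were tested, and their median log2 change was −0.21, or −0.25 without tlh1, but 0.06 without WT replicate 1 and 0.23 in a narrower window of 50000 bases. Beside tlh1 above, 6 genes (42.9%) had both deletion libraries below both WT libraries, where 21.4% of all features had. The lowest log2 change, though not the smallest p, was that of SPAC977.18 (positions 31140 to 32345, uncharacterized protein), with 0.2 and 0.168 CPM in the deletion libraries, against 2.21 and 2.48 CPM in WT. Its log2 change was −3.59 (SE 0.85), from 7 and 2 reads in the deletion libraries and 51 and 21 in WT. The adjusted p was 0.257 in edgeR's test, 0.0225 in DESeq2 and 0.254 in limma-voom, and limma on the RPKM values also called the gene lower. With 1 library left out, its log2 change ran from −3.72 to −3.50. Only 13.7% of its 50-base windows are unique in the genome, and it overlaps ftm2 on the opposite strand.

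SPAPJ695.02 (positions 74452 to 76721, uncharacterized protein) is the innermost member of 1L. It had 1.28 and 2.02 CPM in the deletion libraries, against 6.83 and 9.2 CPM in WT, with a log2 change of −2.31 (SE 0.42, adjusted p 0.164 in edgeR's test). With 1 library left out, its log2 change ran from −2.62 (without deletion replicate 2) to −1.97 (without deletion replicate 1). All of its windows are unique, so its reads are not shared with a copy. The gene on the far side of the 75000-base limit, ght3, a gluconate transporter of the plasma membrane, had 8 and 10 reads in the deletion libraries, against 2 and 2 in WT, and was too low to test.

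The most abundant transcripts of 1L per length lay over 50 kb from the end. SPAC977.14c, an aldo-keto reductase, had 75.4 and 71.5 CPM in the deletion libraries, against 115 and 76.6 CPM in WT (log2 change −0.39, SE 0.28). nhe1, which exports sodium ions from the cell in exchange for protons, had 105 and 144 CPM in the deletion libraries, against 161 and 171 CPM in WT (log2 change −0.42, SE 0.28). The L-asparaginase SPAC977.12, an enzyme that cleaves asparagine to aspartate and ammonia, had 44.9 and 49.4 CPM in the deletion libraries, against 79.8 and 55.4 CPM in WT (log2 change −0.52, SE 0.27). For all 3 the deletion libraries lay below WT, by less than 2-fold, and edgeR's adjusted p was 0.712, 0.674 and 0.569 in this order.

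For 3 other genes of this stretch the strains overlapped. dak2, a kinase of dihydroxyacetone, had 7.67 and 18.5 CPM in the deletion libraries, against 9.04 and 9.9 CPM in WT. SPAC977.17, a channel of the MIP family that overlaps dak2 on the opposite strand, had 0.171 and 3.87 CPM in the deletion libraries, against 2.73 and 1.18 CPM in WT. SPAC977.15, of the dienelactone hydrolase family, had 14.9 and 21.8 CPM in the deletion libraries, against 24.9 and 16 CPM in WT. The spread within a strain was as wide as the gap between the strains in each.

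At the right end of chromosome 1, 10 of 18 genes were tested, with a median log2 change of −0.13, or 0.48 over those that have no copy. Here 2 genes (20%) had both deletion libraries above WT and 2 (20%) had both below, which is near the 20.1% and 21.4% of all features. yhb1 (positions 5517865 to 5519950), which encodes a nitric oxide dioxygenase that detoxifies nitric oxide, had 4.28 and 3.2 CPM in the deletion libraries, against 26.6 and 9.9 CPM in WT. The adjusted p of yhb1 was 0.239 in edgeR's test, 0.00324 in DESeq2 and 0.206 in limma-voom, and limma on the RPKM values did not call it. Its log2 change was −2.28 (SE 0.49) and was −1.40 without WT replicate 1, which held 614 reads against 84 in WT replicate 2. It passed edgeR's test without any 1 of the other 3 libraries. SPAC750.06c, a member of a 5-copy family, had 0.599 and 0.253 CPM in the deletion libraries, against 1.77 and 1.41 CPM in WT (log2 change −1.83, SE 0.88).

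Above WT stood SPAC186.06, annotated as an isomerase, with 54 and 42 reads in the deletion libraries, against 0 and 10 in WT (log2 change 2.35, SE 1.45, adjusted p 0.654 in edgeR's test). Its log2 change was 1.07 without WT replicate 1 and 8.87 without WT replicate 2, which leaves WT at 0, so that this value depends on the prior count and is no bound. sul2, a sulfate transporter and the innermost member of 1R, had 2.94 and 2.36 CPM in the deletion libraries, against 1.95 and 0.707 CPM in WT (log2 change 0.93, SE 0.65), and its log2 change was 1.90 without WT replicate 1 and 0.45 without WT replicate 2. The values of SPAC186.06 and sul2 do not overlap between the strains, but their standard errors are wide. Beyond the 75000-base limit, hry1 had 0 reads in both deletion libraries, against 2 and 0 in WT.

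The neighbour of SPAC186.06, gdt1, a member of the GDT1-like family, shows how much 1 library can decide. It had 274 and 121 reads in the deletion libraries, against 2 and 84 in WT, so that WT replicate 2 was as high as the deletion and WT replicate 1 was nearly empty. Its log2 change was 0.96 with all libraries (adjusted p 0.85 in edgeR's test), 6.61 without WT replicate 2 (adjusted p 0.0307) and −0.15 without WT replicate 1. SPAC186.04c, on its other side, had 20 and 2 reads in the deletion libraries, against 0 in both WT libraries. pdc102, a pyruvate decarboxylase, had 0 and 3 reads in the deletion libraries, against 0 in both WT libraries.

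At the left end of chromosome 2, 10 of 22 genes were tested. Their median log2 change of −0.74 was the lowest of the 4 ends with all libraries, but this rank rests on single libraries: without WT replicate 1 it was −0.12, against −0.54 on 2R, without WT replicate 2 −0.68, against −0.81 on 2R, and without deletion replicate 2 −0.44, against −0.66 on 2R. Of these genes, 5 (50%) had both deletion libraries below WT and 0 above, beside 21.4% and 20.1% of all features. cmt2 (positions 64487 to 65620), a catechol O-methyltransferase, had 2.85 and 6.48 CPM in the deletion libraries, against 37.2 and 15 CPM in WT. The adjusted p of cmt2 was 0.243 in edgeR's test, 0.000944 in DESeq2 and 0.138 in limma-voom, and limma on the RPKM values also called it lower. Its log2 change was −2.54 (SE 0.55) and was −1.72 without WT replicate 1. It passed without deletion replicate 2 and without WT replicate 2. cmt2 overlaps a non-coding RNA gene on the opposite strand, and no source used here says whether reads were counted by strand.

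fex2, a fluoride exporter of the plasma membrane, had 15.4 and 11.4 CPM in the deletion libraries, against 42.3 and 21.9 CPM in WT (log2 change −1.26, SE 0.36, adjusted p 0.337 in edgeR's test). The change of fex2 was −0.71 without WT replicate 1. SPBPB21E7.08, a pseudogene and the innermost member of 2L, had 5.9 and 7.66 CPM in the deletion libraries, against 10.8 and 19.1 CPM in WT (log2 change −1.14, SE 0.37, and −0.68 without WT replicate 2). The gene on the far side of the limit, the L-asparaginase SPBPB21E7.09, had 3.91 and 5.39 CPM in the deletion libraries, against 3.29 and 5.89 CPM in WT, with a log2 change of 0.03.

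The most abundant transcript of all 91 genes per length was SPBPB8B6.05c on 2L, an L-asparaginase. It stood at 184 and 129 RPKM in the deletion libraries, against 304 and 152 RPKM in WT. In CPM it had 205 and 241 in the deletion libraries, against 316 and 240 in WT, and overlapped (log2 change −0.32, SE 0.30). On its outer side lie 2 genes with few reads: fah1, an acetamidase, had 0 reads in the deletion libraries, against 0 and 1 in WT, and the transcription factor gene grt1 had 0 reads in the deletion libraries, against 5 and 7 in WT. aes1, annotated in the phenazine biosynthesis family, had 3.45 and 14.2 CPM in the deletion libraries, against 2.12 and 4.72 CPM in WT. Its log2 change of 1.39 (SE 0.71) was 0.07 without deletion replicate 2 and 2.13 without deletion replicate 1, and its adjusted p in edgeR's test was 0.557 with all libraries and 0.0202 without deletion replicate 1.

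At the right end of chromosome 2, 13 of 23 genes were tested, with a median log2 change of −0.48, or −0.55 without tlh2 and −0.81 without WT replicate 2. nrg1 (positions 4457661 to 4459842), annotated as an amino acid permease and the innermost member of 2R, had 0.57 and 3.7 CPM in the deletion libraries, against 8.61 and 8.96 CPM in WT. Its log2 change was −2.16 (SE 0.76, adjusted p 0.404 in edgeR's test). Here the WT libraries matched closely and the deletion libraries differed severalfold, with 20 and 44 reads. The log2 change of nrg1 was −1.24 without deletion replicate 1 and −3.92 without deletion replicate 2, where it passed (adjusted p 0.000167 in edgeR's test, of a range up to 0.748 with 1 library left out). Beyond the limit, fub2, a proteasome regulator of the PI31 family, had 0 reads in both deletion libraries, against 16 and 4 in WT.

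pan5, a reductase of pantothenate synthesis, was the most abundant transcript of 2R per length. It had 53.2 and 63.1 CPM in the deletion libraries, against 82 and 74.4 CPM in WT (log2 change −0.43, SE 0.24). SPBCPT2R1.04c, of the 5-copy family named above, had 1.88 and 0.758 CPM in the deletion libraries, against 4.07 and 2.24 CPM in WT (log2 change −1.22, SE 0.65, and between −2.07 and −0.73 with 1 library left out). Each had both deletion libraries below WT, and neither passed, with edgeR adjusted p values of 0.621 and 0.575.

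The galactose cluster of 2R holds the enzymes that convert galactose to a glucose phosphate, and its genes showed no common direction. gal1, the galactokinase, had 3.99 and 3.54 CPM in the deletion libraries, against 3.81 and 2.24 CPM in WT. gal7, the uridylyltransferase, had 0.941 and 2.36 CPM in the deletion libraries, against 1.6 and 2.95 CPM in WT. gal10, the epimerase, had 11.8 and 7.32 CPM in the deletion libraries, against 15 and 10.1 CPM in WT. The strains overlapped in all 3, with log2 changes of 0.29, −0.48 and −0.39 in this order. tgd1, a nucleotide-sugar dehydratase that overlaps gal7 and gal10 on the opposite strand, had a log2 change of 0.50 (SE 0.36), also with overlap.

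**Figure D3:**
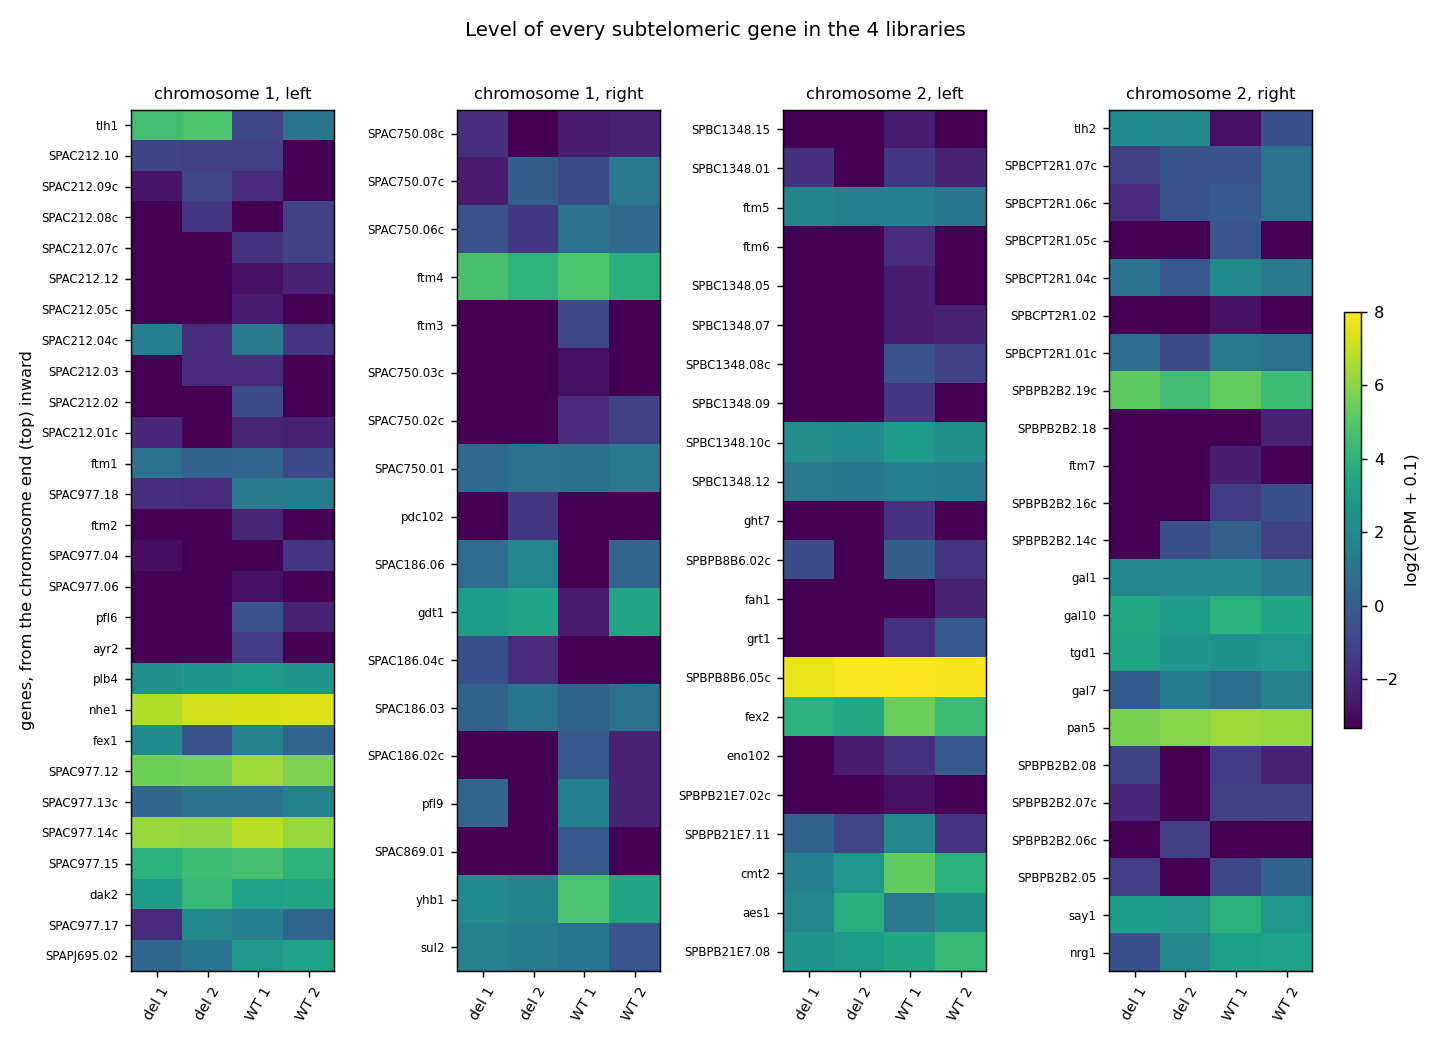
Level of all 91 genes in each library, as log2(CPM + 0.1) on a colour scale; rows run from the chromosome end (top) inward, and columns are deletion replicates 1 and 2 (del) and then WT replicates 1 and 2. The top rows show tlh1 and tlh2 bright in the deletion libraries, and the darkest cells, genes with no read, are most frequent in the upper rows of the deletion columns.

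Copies of the same gene were found at several ends. Among the members, 44 fell into 17 families whose proteins are at least 90% identical, and 19 members had no 50-base window that is unique in the genome, while 37 were unique throughout. The families span the ends rather than 1 end: the ftm genes, named for a transmembrane helix, have a copy of each kind on all 4 ends, the phospholipases plb4 and SPBC1348.10c lie on 1L and 2L, and fex1 and fex2 lie on the same pair. In the deposited counts, 40 of 176 values of single copies were not whole numbers, but 67 of 68 family sums were whole within 0.01. The remaining sum became whole, at 250 reads, once SPAC212.04c on 1L was added.

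The sums of families were therefore also compared, a choice made after the data were seen. Of the 17, only the helicases had both deletion libraries above both WT libraries, 7 (41.2%) had both below and 9 overlapped. Over the 5915 features that passed the filter on low counts, 20.1% were above and 21.4% below. Only 9 of the 17 families passed that filter, so these shares do not rest on like sets. fex1 and fex2 together had 19.8 and 12.1 CPM in the deletion libraries, against 45.2 and 23.1 CPM in WT (log2 change −1.10, SE 0.39, adjusted p 0.412 in edgeR's test). The sum separates the strains although fex1 alone, with 4.39 and 0.673 CPM in the deletion libraries against 2.94 and 1.18 CPM in WT, did not. The 5-copy family of uncharacterized proteins (SPAC212.01c, SPAC750.06c, SPBC1348.01, SPBCPT2R1.01c and SPBCPT2R1.04c) had 4.4 and 1.52 CPM in the deletion libraries, against 8.35 and 5.66 CPM in WT (log2 change −1.20, SE 0.53).

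A family of 3 annotated transporters, SPAC750.02c, SPBC1348.05 and SPBPB2B2.16c, with the shorter SPAC977.04, had 1 and 0 reads in the deletion libraries, against 13 and 10 reads in WT, over all 4 ends. The cell surface glycoproteins pfl6 and SPBC1348.08c together had 0 reads in both deletion libraries, against 29 and 4 in WT. By contrast, the abundant family of ftm1, ftm4, ftm5 and SPBPB2B2.19c had 66.8 and 43.2 CPM in the deletion libraries, against 70.8 and 38.2 CPM in WT, with a log2 change of 0.01 (SE 0.37). Within it SPBPB2B2.19c on 2R received most of the reads, with 36.1 and 23.1 CPM in the deletion libraries, against 39 and 21.8 CPM in WT, and ftm4 on 1R had 25.6 and 16.2 CPM in the deletion libraries, against 27.8 and 13.9 CPM in WT. The 2 L-asparaginases SPAC977.12 and SPBPB8B6.05c together had 250 and 291 CPM in the deletion libraries, against 396 and 296 CPM in WT (log2 change −0.36). plb4 and SPBC1348.10c had 9.49 and 10.4 CPM in the deletion libraries, against 14.1 and 10.8 CPM in WT (log2 change −0.34).

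**Figure D4:**
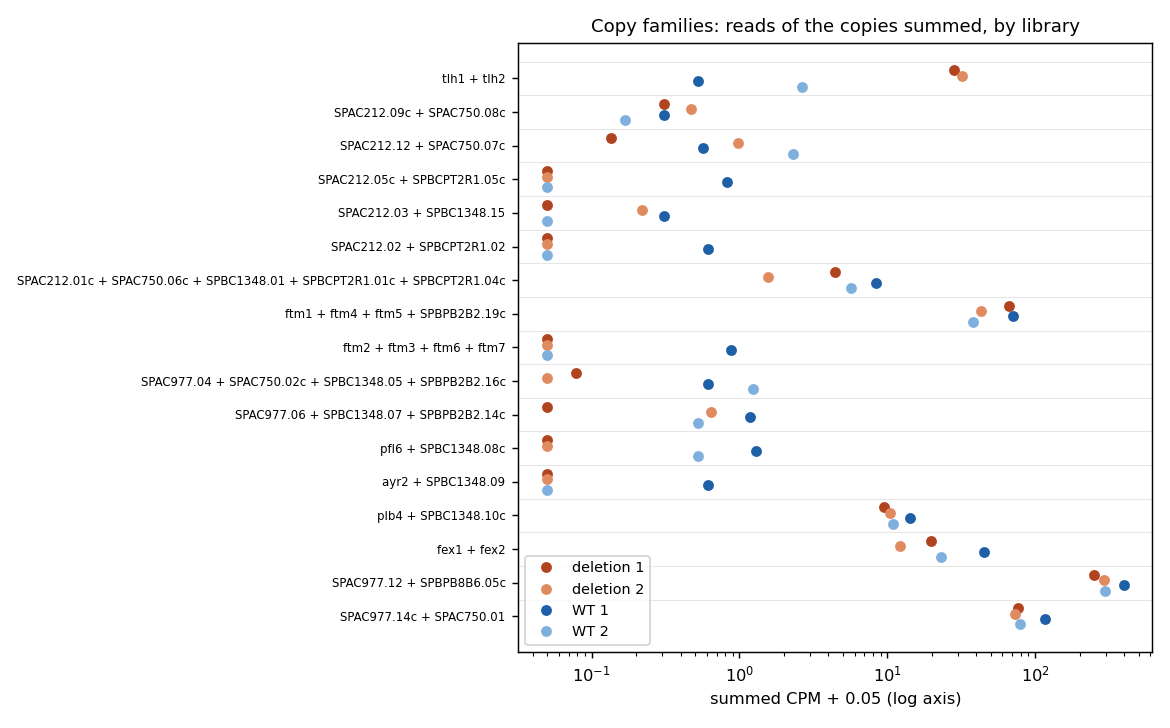
Summed level of each copy family in each library, in CPM + 0.05 on a log axis; each row is a family and each point a library, with deletion points drawn above WT points. The helicases are the only family whose deletion libraries both lie to the right of WT, and points at the left edge are libraries with 0 reads for the family.

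Many subtelomeric genes had no read in the deletion libraries. Of the 91, 34 and 37 were at 0 in deletion replicates 1 and 2, against 8 and 23 in WT replicates 1 and 2. In all, 28 members (30.8%) were at 0 in both deletion libraries, beside 1.32% of the 5147 nuclear genes of the same kinds. They made up 41.2% of the 68 nuclear genes with this pattern, although members are 1.77% of nuclear genes. Every feature of the table has a read in at least 1 library, so all 28 had a read in WT, and 19 of the 28 belong to copy families. In the opposite direction 3 members (3.3%, beside 0.33% of the nuclear genes of the same kinds) were at 0 in both WT libraries: SPAC186.04c, pdc102 and SPBPB2B2.06c, an annotated phosphatase with 0 and 4 reads in the deletion libraries.

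The 28 genes were low in WT too. They had at most 19 reads in WT replicate 1 and at most 7 in WT replicate 2, with 166 and 27 reads in sum. The pattern leans on WT replicate 1, in which 26 of them had reads, against 11 in WT replicate 2. WT replicate 1 also had the fewest features without a read over the whole table, 129, against 436 and 370 in the deletion libraries and 404 in WT replicate 2. What this library contributes to the pattern was not tested beyond these counts. A count of 0 allows a level of up to 0.0855 and 0.253 CPM in the deletion libraries and 0.13 and 0.354 CPM in the WT libraries (3 reads each, counting error only), so that levels this low could not be told apart.

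The most reads in WT replicate 1 among them, 19, were found for a pair of genes of 1R with unique sequence. SPAC869.01, an amidase, had 0 reads in both deletion libraries, against 19 and 0 in WT, and SPAC186.02c, a hydroxyacid dehydrogenase, had 0 reads in both deletion libraries, against 19 and 1 in WT. In CPM the highest WT mean among them was that of grt1 on 2L, with 0.216 and 0.825 CPM in WT. The ends held 8 (1L), 5 (1R), 10 (2L) and 5 (2R) of these genes.

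Low genes were also counted by library over the rest of the genome. Among genes with 1 to 19 reads in WT replicate 1, 66.7% and 76.2% of 42 members were at 0 in deletion replicates 1 and 2, and 47.6% in WT replicate 2. Among 362 other nuclear genes of that range, 17.1% and 17.7% were at 0 in the deletion libraries and 22.9% in WT replicate 2. The range was set by the reads of WT replicate 1, so that this library has no zeros here, and it does not match the levels: the median was 5 reads for the members and 10.5 reads for the other genes. These shares are therefore a description, and the difference was not tested.

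**Figure D5:**
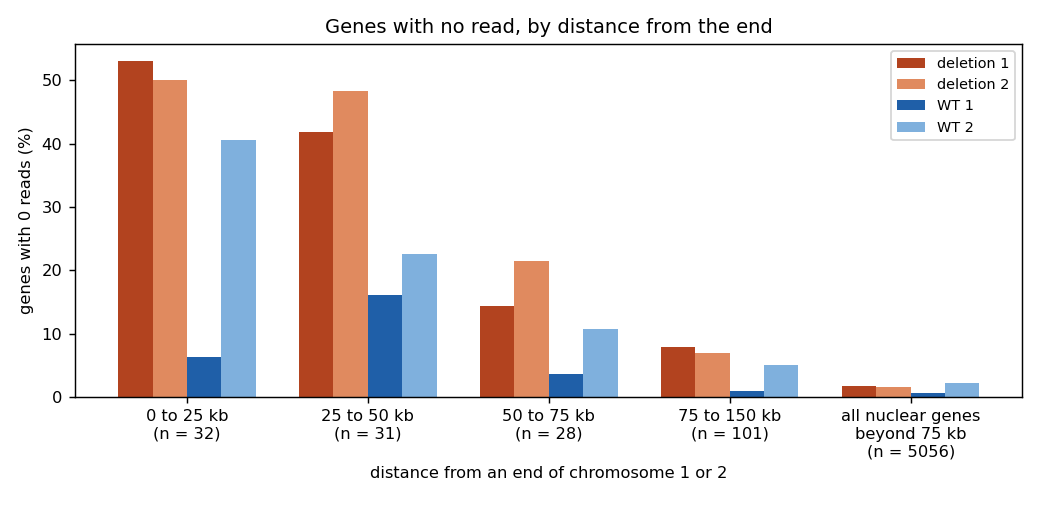
Share of genes with 0 reads (y axis, percent) by distance from the end of chromosome 1 or 2, for each library, deletion bars to the left of WT bars; the last group is all nuclear genes of the same kinds on any chromosome that are not members, which includes the 75 to 150 kb group. In the outermost 25 kb the deletion libraries reach 53.1% and 50%, WT replicate 2 reaches 40.6% and WT replicate 1 reaches 6.25%.

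Genes without a read were more frequent within 50 kb of the ends than between 50 and 75 kb, in each library. Distances on the right were counted from the last annotated feature. In the outermost 25 kb, 53.1% and 50% of 32 genes were at 0 reads in the deletion libraries, against 6.25% and 40.6% in WT. Between 25 and 50 kb, 41.9% and 48.4% of 31 genes were at 0 in the deletion libraries, against 16.1% and 22.6% in WT, so that WT replicate 1 had its highest share there and not in the outermost range. Between 50 and 75 kb, 14.3% and 21.4% of 28 genes were at 0 in the deletion libraries, against 3.57% and 10.7% in WT. The median level of all members was 0.313 and 0.201 RPKM in the deletion libraries, against 0.737 and 0.282 RPKM in WT. In the next 75000 bases inward it was 3.02 and 1.83 RPKM in the deletion libraries, against 3.64 and 2.17 RPKM in WT. Among tested members, the share with both deletion libraries below WT was 27.3% in the outermost 25 kb (11 genes), 26.7% between 25 and 50 kb (15 genes) and 52.4% between 50 and 75 kb (21 genes), so that the share was highest in the innermost of the 3 ranges.

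Genes of proteins that act at chromosome ends, in silencing or against it, were looked at as the other genes of the pathway. Only their RNA was measured. The list held 48 genes, for shelterin and telomerase subunits, the Clr4 complex, HP1-type proteins, deacetylases and RNA interference factors. It also held boundary and anti-silencing factors, RNA elimination factors, and sgo2 and set2. All 48 were tested, and edgeR called 0 higher and 0 lower, with 0 at an unadjusted p of 0.05 and 0 called by DESeq2 or limma-voom. Their median log2 change was −0.05, beside 0.00 for all features, and ran between −0.87 and 0.73. Both deletion libraries lay above WT for 3 (sgo2, pot1 and bqt4), or 6.25%, and below for 7, or 14.6%, beside 20.1% and 21.4% of all features.

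dcr1, the Dicer ribonuclease of RNA interference, had 1.94 and 2.69 CPM in the deletion libraries, against 3.81 and 4.6 CPM in WT (log2 change −0.87, SE 0.44). ers1, another factor of that pathway, had 3.08 and 3.03 CPM in the deletion libraries, against 5.15 and 5.78 CPM in WT (log2 change −0.83, SE 0.36). rif1, a telomere length regulator, had 7.58 and 6.14 CPM in the deletion libraries, against 11.3 and 10.8 CPM in WT (log2 change −0.68, SE 0.29). These 3 did not overlap between the strains, but the lowest adjusted p of the list in edgeR's test was 0.497. Among the other RNA interference genes of the list, arb2 was also below WT (log2 change −0.86, SE 1.12). The strains overlapped in the rest, with log2 changes of 0.28 (arb1), 0.15 (tas3), 0.14 (cid12), 0.12 (chp1) and 0.09 (dsh1). For rdp1, hrr1 and ago1 the log2 changes were 0.03, −0.04 and −0.20. bqt4, which tethers telomeres to the nuclear envelope, had a log2 change of 0.56 (SE 0.27). The most abundant per length, the exosome nuclease gene rrp6 and the polymerase gene cid14 of the TRAMP complex, had log2 changes of −0.08 and −0.21, both with overlap.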

How the data were processed

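RNA-seq of 2 eif3e deletion and 2 WT libraries was used. Features held 28254322 and 16679123 reads in deletion replicates 1 and 2, and 17485020 and 9926548 reads in WT replicates 1 and 2. Partek 6.0, TopHat 1.4.1, Bowtie 1.1.0 and SAMtools are listed in the submitters' processing notes; no source used here gives the genome build or the use of strand. The authors deposited estimated counts of reads per feature, not normalized, and RPKM values scaled by transcript length and library reads. A deposited p-value and a chi-square score per feature were not used here, nor were the junction and incompatible RPKM values; lengths were deposited in bases. There were 0 columns that could not be tied to a library.

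Starts or ends of all 91 members equal RefSeq's (ASM294v3), as do those of 99.29% of 6636 matched features, so sequences were read from that build. The last feature of chromosome 2 ends at 4532899 and the RefSeq sequence at 4539804. Distances on 2R were counted from the former and so are shorter than those from the assembled end. Copies are members with proteins at least 90% identical over at least 50% of the shorter one.

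Counts were rounded to whole numbers and fitted with edgeR 4.0.16 (R 4.3.3; TMM, filterByExpr, glmQLFit, glmQLFTest, two-sided, strain only) over all 5915 features that passed the filter, with Benjamini-Hochberg adjustment and a threshold of 0.05. DESeq2 1.42.0, limma-voom and limma 3.58.1 on log2(RPKM + 0.1) were alternatives. The fit was tested on simulated counts of this comparison, where 4.25% of calls were false.

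The members and the list of silencing proteins were chosen with earlier results of these data known. Named were int6, tlh1, tlh2 and, at each end, members past the threshold, up to 3 of smallest p in each direction without overlap, the 2 of highest RPKM, the outermost, the innermost and the gene beyond the limit, with 6 of the list. Other members named were chosen after their values were seen. Python 3.11.15, pandas 2.3.3, Biopython 1.88 and matplotlib 3.10.9 served for tables, translation and plots.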

Additional observations from a re-analysis of the deposited data

How the results depend on the processing

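With DESeq2's size factors (RLE) in edgeR, the counts of calls were the same as with TMM. Features called higher numbered 15 with no filter on low counts, 88 with the replicate block and 49 with DESeq2, and ran from 0 to 70 with 1 library left out, against 1 in the main comparison. Features called lower numbered 5 with no filter, 105 with the replicate block and 41 with DESeq2, and ran from 0 to 172 with 1 library left out, against 0. Where a strain keeps 1 library, that library is assumed to vary like those of the other strain. Among the subtelomeric genes, calls higher numbered 1 with no filter, 2 with the block, 2 with DESeq2 and 1 in a window of 100000 bases, and ran from 0 to 2 with 1 library left out. Calls lower numbered 4 with the block (SPAPJ695.02, yhb1, fex2 and cmt2) and 4 with DESeq2, and ran from 0 to 4 with 1 library left out; limma-voom gave 0 in each direction. Limma on RPKM called tlh1 and SPAC186.06 higher and SPAC977.18 and cmt2 lower.

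tlh1 passed with no filter (4.64, adjusted p 0.015), with the block (4.74, adjusted p 0.00154), with DESeq2 (4.57) and in limma on RPKM (3.91), and its log2 change ran from 3.68 to 5.88 with 1 library left out. tlh2 passed with the block (4.24, adjusted p 0.0407) and with DESeq2 (4.03), did not pass in limma on RPKM (2.33, adjusted p 0.391), and ran from 2.79 to 6.41. Non-overlapping subtelomeric genes numbered 4 with the deletion above and 18 below in the main comparison. They numbered 12 above and 23 below in a window of 100000 bases, and 3 and 7 in a window of 50000 bases. With no filter they numbered 5 and 30, which includes genes with 0 reads in both deletion libraries. Over all features tested the shares were 20.1% above and 21.4% below. The number of genes differs between these sets, so their counts are not shares.

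The medians at the ends depended on the genes kept. With no filter they were −0.51 (1L), −0.75 (1R), −2.50 (2L) and −1.22 (2R). With 1 library left out they ran from −0.46 to 0.06 on 1L, −0.44 to −0.09 on 1R, −0.95 to −0.12 on 2L and −0.81 to −0.54 on 2R. On 1L the median was −0.31 with the block, −0.34 with limma-voom, 0.23 in a window of 50000 bases and −0.30 without copies. On 1R it was 0.48 without copies. On 2L it was −0.36 and −0.39 in windows of 50000 and 100000 bases and −1.08 without copies. The cause was not tested. The replicate block takes same-numbered libraries as pairs. Their titles share a tag across the strains whose meaning the labels do not give, and their deviations from the strain means correlated at 0.238 over tested features and 0.511 over the subtelomeric genes, with 2 pairs only.

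Of 234 values of 26 other named genes, 202 kept their direction and side of the threshold, 21 passed under the alternative and 11 changed sign, all from log2 changes near 0. ftm4 stood at 0.04 with the block, 0.00 with DESeq2 and 0.01 with limma-voom. With 1 library left out, ftm4 ran from −0.40 to 0.59, SPBPB21E7.09 from −0.36 to 0.49, SPBPB2B2.19c from −0.40 to 0.44 and rrp6 from −0.24 to 0.09.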
